A study of Homo sapiens with 12 samples.

Results

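The genes described here encode the lysyl oxidase family (LOX, LOXL1, LOXL2, LOXL3 and LOXL4), the lysyl hydroxylases (PLOD1, PLOD2 and PLOD3) and the catalytic alpha subunits of collagen prolyl 4-hydroxylase (P4HA1 and P4HA2). These 10 genes of the 60617 in the deposited tables were listed by name, and LOXL4 was chosen by its measured read count level, which differed between the 2 siRNAs against CEACAM6. LOXL4 values are therefore given as a description, without a test. All 10 genes passed the filter on low counts, which left 17620 genes for testing.

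RNA-seq was performed on SNU308, a human gallbladder cancer (GBC) cell line, in 12 samples. Cells had been transfected for 3 days with 25 nM of a non-targeting control siRNA (NTC, n = 4), of siCEACAM6#2 (n = 4) or of siCEACAM6#3 (n = 4). CEACAM6 is a membrane-anchored cell adhesion molecule, and the comparisons ask what its partial knockdown does to the transcriptome of these cells. All samples came from 1 cell line without stromal cells, and nothing in the labels says that replicates were separate cultures. The p-values therefore weigh group differences against the spread between these samples, which may be technical.

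Collagen chains are modified inside the endoplasmic reticulum before they are secreted. Prolyl 4-hydroxylases add the hydroxyproline that keeps the triple helix stable, and lysyl hydroxylases add the hydroxylysine that carries sugars and sets the type of cross-link. Outside the cell, the copper-dependent lysyl oxidases oxidise lysine and hydroxylysine side chains of collagen and elastin, and the resulting aldehydes form covalent cross-links that stiffen the matrix of many tumours.

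The 2 siRNAs are shown by their target sequences, since they are the only labelled difference between the knockdown groups. Capitals mark the bases that pair with positions 2 to 8 of the siRNA guide strand, the seed.
siCEACAM6#2: cagccatgcaatgCCAAATAa
siCEACAM6#3: ctcctaatagtcaTACTAGTa
On GRCh38, the siCEACAM6#2 target lay at chr19:41771369-41771389 and the siCEACAM6#3 target at chr19:41771611-41771631, both on the plus strand in the 3′ UTR of CEACAM6, within exon 6 of 6. The siCEACAM6#3 target had a second exact match on this chromosome, at chr19:42799318-42799338 on the minus strand, outside the exons of CEACAM6. Only chromosome 19 was searched, and other genes at that place were not looked up. The seed match CCAAATA of siCEACAM6#2 was present in 14.6% of 18780 annotated 3′ UTRs and the seed match TACTAGT of siCEACAM6#3 in 5.87%, both read on the transcript strand. Among the 10 genes, the 3′ UTR of LOX held 1 match for each siRNA, and the 3′ UTRs of the other 9 genes held none. LOXL4 had neither seed match anywhere in its transcript. A match describes the letters only.

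CEACAM6 itself was measured first. Its level was 524, 569, 596 and 619 CPM (the count scaled by library size, with TMM factors) in the NTC samples. It was 353, 343, 286 and 329 CPM with siCEACAM6#2 and 423, 387, 424 and 438 CPM with siCEACAM6#3, so that neither knockdown group overlapped NTC. The knockdown was partial, with a fitted fold versus NTC of 0.567 for siCEACAM6#2 and 0.725 for siCEACAM6#3. CEACAM6 fell upon siCEACAM6#2 (log2 fold change -0.82 ± 0.0675 SE, adjusted p = 2.71e-05) and upon siCEACAM6#3 (-0.46 ± 0.0672, adjusted p = 0.0151, limma-voom with Benjamini-Hochberg adjustment over all tested genes). The second call was lost when NTC replicate 2, 3 or 4 or siCEACAM6#3 replicate 3 was left out, with log2 fold changes between -0.47 and -0.43. Samples held between 21799476 and 22059456 estimated counts. Epithelial markers were abundant (EPCAM 196.3 to 260.9 TPM), while the fibroblast markers together reached 2.85 to 5.21 TPM and the endothelial markers 1.57 to 2.92 TPM over all samples. VWF, an endothelial marker, fell upon siCEACAM6#2 (log2 fold change -0.44, adjusted p = 0.0419), a call kept in 3 of the 12 fits that left out 1 sample. The VWF call was lost without the filter, in both fits on TPM and without all 3 samples numbered 1. CDH5, another endothelial marker, was higher with siCEACAM6#3 than with siCEACAM6#2 (log2 1.31, adjusted p = 0.016) at 0.493 to 2.31 CPM. The CDH5 call was lost with only the groups compared, in both fits on TPM and without siCEACAM6#2 replicate 3 or 4, with a log2 difference as low as 0.43. No epithelial, fibroblast or leukocyte marker passed in a contrast.

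Per transcript length, LOXL1 was the most abundant of the 10 mRNAs in the control cells. LOXL1 averaged 41.5 ± 3.14 TPM (SD, n = 4) in NTC on the TPM scale, which corrects for transcript length, above 83% of all tested genes. PLOD2 at 31.8 ± 1.15 TPM and PLOD3 at 30.2 ± 2.49 TPM followed, with overlapping ranges. PLOD1 averaged 24.0 ± 1.25 TPM, P4HA2 16.6 ± 1.02 TPM and P4HA1 11.7 ± 0.972 TPM, each with a range apart from its neighbours. LOXL4 averaged 6.66 ± 1.12 TPM. The remaining lysyl oxidases were scarce: LOXL3 averaged 1.40 ± 0.266 TPM, LOXL2 0.95 ± 0.144 TPM and LOX, the founding member of the family, 0.352 ± 0.0887 TPM. With siCEACAM6#2 the ranges of LOXL1, PLOD3 and PLOD2 ran into each other, as did those of LOXL3 and LOXL2, and the other neighbours stayed apart. With siCEACAM6#3, PLOD2 (33.4 ± 3.44 TPM), LOXL1 (32.2 ± 4.46 TPM) and PLOD3 (27.5 ± 2.28 TPM) could not be separated by their ranges. LOXL4 (14.2 ± 5.66 TPM) then overlapped both P4HA2 (16.7 ± 1.41 TPM) and P4HA1 (12.7 ± 1.21 TPM).

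**Figure D1:**
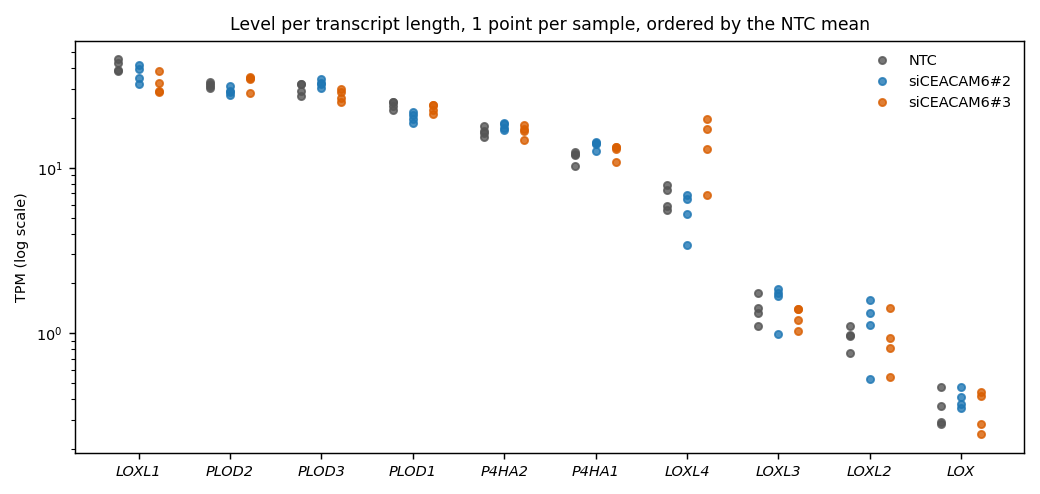
Level of each gene in TPM on a log axis, with 1 point per sample and colours for NTC, siCEACAM6#2 and siCEACAM6#3. Genes are ordered by their NTC mean, from LOXL1 at 41.5 TPM to LOX at 0.352 TPM, and LOXL4 shows the widest spread with siCEACAM6#3.

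LOXL4, a lysyl oxidase with scavenger receptor domains, was highest in 3 of the 4 siCEACAM6#3 samples. In NTC its level was 15.6, 14.96, 20.7 and 21.7 CPM. With siCEACAM6#2 it was 9.42, 18.3, 19.1 and 14.2 CPM. With siCEACAM6#3 it was 18.6, 56.3, 36.6 and 50.2 CPM. Replicates 2, 3 and 4 of siCEACAM6#3 lay above every other sample, whereas replicate 1 lay within the range of NTC and of siCEACAM6#2, so the groups overlapped. These values rested on 208 to 1196 estimated counts.

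The fitted LOXL4 level was 2.52-fold higher with siCEACAM6#3 than with siCEACAM6#2 (log2 1.34, 95% interval 0.71 to 1.97). This is the difference that placed LOXL4 on the list, so it may be overstated. The intervals of LOXL4 given here describe the spread and are no test. Of the other 9 genes, PLOD2 had the smallest p, at a log2 difference of 0.21, and LOXL2 the largest difference in size, at 0.52. Against NTC, the log2 fold change of LOXL4 was 1.05 with siCEACAM6#3 (95% interval 0.44 to 1.65) and -0.29 with siCEACAM6#2 (-0.97 to 0.39). Both comparisons used the same NTC samples. Without siCEACAM6#3 replicate 1, the log2 difference between the siRNAs was 1.68, and without siCEACAM6#2 replicate 1 it was 1.12.

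The mitochondrial share of counts moved with LOXL4 among the siCEACAM6#3 samples, and a similar pattern was present within the other groups. With siCEACAM6#3 that share was 12.5% in replicate 1 and 15.3%, 14.3% and 14.6% in replicates 2, 3 and 4. In replicates 1 to 4 it was 12.2%, 11.8%, 12.9% and 12.6% in NTC and 12.3%, 13.3%, 13.2% and 12.2% with siCEACAM6#2. NTC replicates 3 and 4 and siCEACAM6#2 replicates 2 and 3 were higher than the rest of their group in both LOXL4 and this share. The leukocyte list, which consists almost wholly of the lysosomal protein gene CD68 in these cells, summed to 30.18 to 40.91 TPM in NTC, 28.84 to 46.31 TPM with siCEACAM6#2 and 30.07 to 62.72 TPM with siCEACAM6#3. The list was also higher than in the rest of the group in NTC replicates 3 and 4 (37 and 40.91 TPM). The same held for siCEACAM6#2 replicates 2 and 3 (43.66 and 46.31 TPM). CD68 measured 30.3, 54.0, 40.1 and 47.4 CPM in siCEACAM6#3 replicates 1 to 4. The leukocyte-defining gene PTPRC had at most 20 estimated counts, in siCEACAM6#3 replicate 4, and 1 in replicate 2, where LOXL4 was highest. The part of these in the LOXL4 values was not tested.

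LOXL4 lies on the minus strand of chromosome 10 (GRCh38, chr10:98247690-98268194) and has 15 exons in its reference transcript. Of the 31-base words in its transcripts, 3.53% also occurred in another gene, all in an antisense gene. That antisense gene had 1.01 to 14.04 estimated counts, far below LOXL4.

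LOXL1, which acts mainly on elastin, made up most of the lysyl oxidase mRNA. Its level was 72.6, 64.9, 64.0 and 62.0 CPM in NTC. It was 67.4, 60.3, 52.7 and 64.2 CPM with siCEACAM6#2 and 59.2, 48.6, 51.5 and 58.7 CPM with siCEACAM6#3. All siCEACAM6#3 samples lay below all NTC samples, while siCEACAM6#2 overlapped both groups. The log2 fold change was -0.28 ± 0.0823 (SE) for siCEACAM6#3 versus NTC, and it did not pass the threshold of 0.05 (adjusted p = 0.193, 95% interval -0.45 to -0.10). For siCEACAM6#2 versus NTC it was -0.11 (adjusted p = 0.607, 95% interval -0.28 to 0.06). LOXL1 (chr15:73925989-73952137, plus strand) shares 7.15% of its 31-base words with other genes, foremost its antisense gene LOXL1-AS1, which had 187 to 283 estimated counts against 1032 to 1626 for LOXL1.

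LOXL4 and LOXL1 together accounted for nearly all lysyl oxidase family TPM. The share of LOXL4 was 10.9%, 10.9%, 14.8% and 16.1% in NTC and 7.09%, 14.3%, 16.1% and 11.2% with siCEACAM6#2. It was 14.5%, 39.1%, 28.7% and 33.0% with siCEACAM6#3. LOXL1 exceeded LOXL4 in TPM in every sample, from 12.3-fold in siCEACAM6#2 replicate 1 down to 1.44-fold in siCEACAM6#3 replicate 2. The summed family level was 48.92 to 53.52 TPM in NTC, 42.52 to 47.86 TPM with siCEACAM6#2 and 45.05 to 52.2 TPM with siCEACAM6#3. The siCEACAM6#2 sums lay below all NTC sums, while the LOXL4 shares of these 2 groups overlapped. The siCEACAM6#3 sums overlapped those of NTC, and the LOXL4 share was above every NTC sample in siCEACAM6#3 replicates 2, 3 and 4. These shares contain the LOXL4 values that chose the gene and carry no test.

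**Figure D2:**
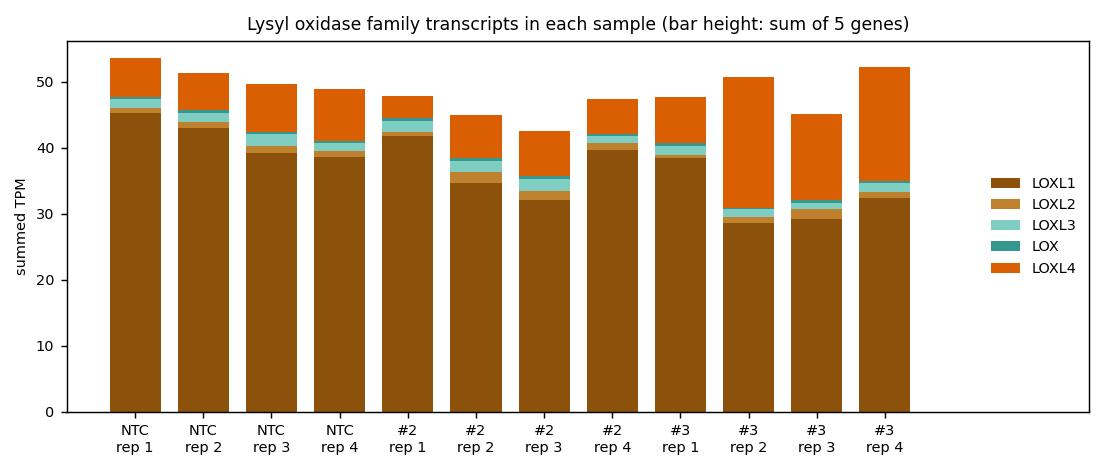
Summed TPM of the 5 lysyl oxidase family genes in each of the 12 samples, stacked by gene. LOXL4 takes 28.7% to 39.1% of the bar in siCEACAM6#3 replicates 2, 3 and 4 and at most 16.1% in the other samples.

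LOXL3, a close relative of LOXL4 with scavenger receptor domains, was low throughout. It measured 2.37, 2.09, 2.34 and 2.05 CPM in NTC, 2.85, 1.98, 1.87 and 1.25 CPM with siCEACAM6#2 and 1.26, 1.46, 1.56 and 1.36 CPM with siCEACAM6#3. In CPM the siCEACAM6#3 range lay below the NTC range, and siCEACAM6#2 spanned both. In TPM siCEACAM6#3 (1.03 to 1.40) overlapped NTC (1.11 to 1.75). The log2 fold change for siCEACAM6#3 versus NTC was -0.65 ± 0.212 (SE) and did not pass the test (adjusted p = 0.237, 95% interval -1.10 to -0.20). Over the alternative fits it ran from -0.692 to -0.0847. LOXL3 had only 27.9 to 62.6 estimated counts. It shares 22.1% of its 31-base words with other genes, most of them with its neighbour HTRA2, which had 292 to 374 estimated counts, and the value of LOXL3 is uncertain to that extent.

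LOX and LOXL2 were near the lower limit of detection. LOX ranged from 0.628 to 1.38 CPM over all samples, on 14.2 to 30.2 estimated counts, and all 3 groups overlapped. Its log2 fold change was -0.11 with siCEACAM6#2 (95% interval -0.66 to 0.44) and -0.19 with siCEACAM6#3 (-0.75 to 0.36). LOXL2, which is known for cross-linking basement membrane collagen, ranged from 0.408 to 1.74 CPM, on 9 to 37 estimated counts. Its log2 difference between siCEACAM6#3 and siCEACAM6#2 was 0.52 (95% interval -0.20 to 1.24). At this depth, changes of LOX and LOXL2 anywhere inside these intervals are compatible with the data. The intervals do not mark the smallest change that could pass the test.

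The lysyl hydroxylases did not differ past the threshold between any groups, and the largest fitted fold was 1.16. PLOD1, which hydroxylates lysines in the triple helix, measured 51.9, 53.5, 53.1 and 48.6 CPM in NTC. It measured 46.2, 45.2, 41.8 and 46.4 CPM with siCEACAM6#2 and 50.8, 48.3, 50.6 and 56.2 CPM with siCEACAM6#3. In CPM all siCEACAM6#2 samples lay below all samples of both other groups. In TPM siCEACAM6#2 (18.71 to 21.89) lay below NTC (22.36 to 25.07) but overlapped siCEACAM6#3 (21.06 to 23.98). The log2 fold change was -0.21 ± 0.0599 (SE) versus NTC (adjusted p = 0.115), and that of siCEACAM6#3 versus siCEACAM6#2 was 0.20 ± 0.0600 (adjusted p = 0.13). Neither passed the threshold. The siCEACAM6#3 samples overlapped NTC (log2 fold change -0.01, 95% interval -0.14 to 0.12).

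PLOD2 hydroxylates lysines in the telopeptides, the ends of the chain where stable cross-links form. Its level was 83.1, 90.8, 89.8 and 89.3 CPM in NTC. It was 79.0, 79.9, 89.2 and 79.9 CPM with siCEACAM6#2 and 97.7, 97.5, 101 and 83.7 CPM with siCEACAM6#3. The groups overlapped through siCEACAM6#2 replicate 3 and siCEACAM6#3 replicate 4. The log2 difference between siCEACAM6#3 and siCEACAM6#2 was 0.21 ± 0.0634 (SE, adjusted p = 0.121). Without siCEACAM6#3 replicate 4 it was 0.27 and passed the test (adjusted p = 0.0207), in a fit that called 1.76% of all genes.

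PLOD3 also transfers sugars onto hydroxylysine. It ranged from 45.2 to 55.5 CPM in NTC, from 53.2 to 56.0 CPM with siCEACAM6#2 and from 45.3 to 54.0 CPM with siCEACAM6#3. In CPM all groups overlapped. In TPM siCEACAM6#3 (24.94 to 29.99) lay below siCEACAM6#2 (30.36 to 34.38). The log2 fold change versus NTC was 0.13 for siCEACAM6#2 (95% interval -0.02 to 0.28) and -0.02 for siCEACAM6#3 (-0.17 to 0.14). Between siCEACAM6#3 and siCEACAM6#2 the log2 difference was -0.15 (adjusted p = 0.391, limma-voom, 95% interval -0.30 to 0.004).

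Of the prolyl 4-hydroxylase subunits, P4HA1, the main form in most cells, stood closest to the threshold. Its level was 23.9, 24.9, 21.8 and 25.1 CPM in NTC. It was 29.3, 27.0, 29.7 and 28.0 CPM with siCEACAM6#2 and 26.6, 28.4, 27.9 and 23.9 CPM with siCEACAM6#3. All siCEACAM6#2 samples lay above all NTC samples, and siCEACAM6#3 overlapped NTC through replicate 4. The fold was 1.19 for siCEACAM6#2 versus NTC (log2 0.26 ± 0.0695 SE, adjusted p = 0.0879) and 1.12 for siCEACAM6#3 versus NTC (log2 0.16 ± 0.0702, adjusted p = 0.376). P4HA1 and PLOD1 passed the threshold in siCEACAM6#2 versus NTC with the DESeq2 Wald test (adjusted p = 0.027 and 0.0471), which called 3.03% of all genes against 1.25% for limma-voom. P4HA1 also passed in the limma-voom fit without siCEACAM6#3 replicate 4 (adjusted p = 0.0399), which called 2.03%.

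P4HA2, the second catalytic subunit, measured 24.6, 25.5, 26.2 and 28.6 CPM in NTC. It measured 28.5, 29.1, 29.4 and 29.9 CPM with siCEACAM6#2 and 28.8, 27.9, 28.5 and 25.8 CPM with siCEACAM6#3. NTC replicate 4 reached into the range of siCEACAM6#2. The log2 fold change was 0.16 ± 0.0618 (SE) for siCEACAM6#2 versus NTC (adjusted p = 0.255) and 0.09 for siCEACAM6#3 (95% interval -0.05 to 0.22).

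**Figure D3:**
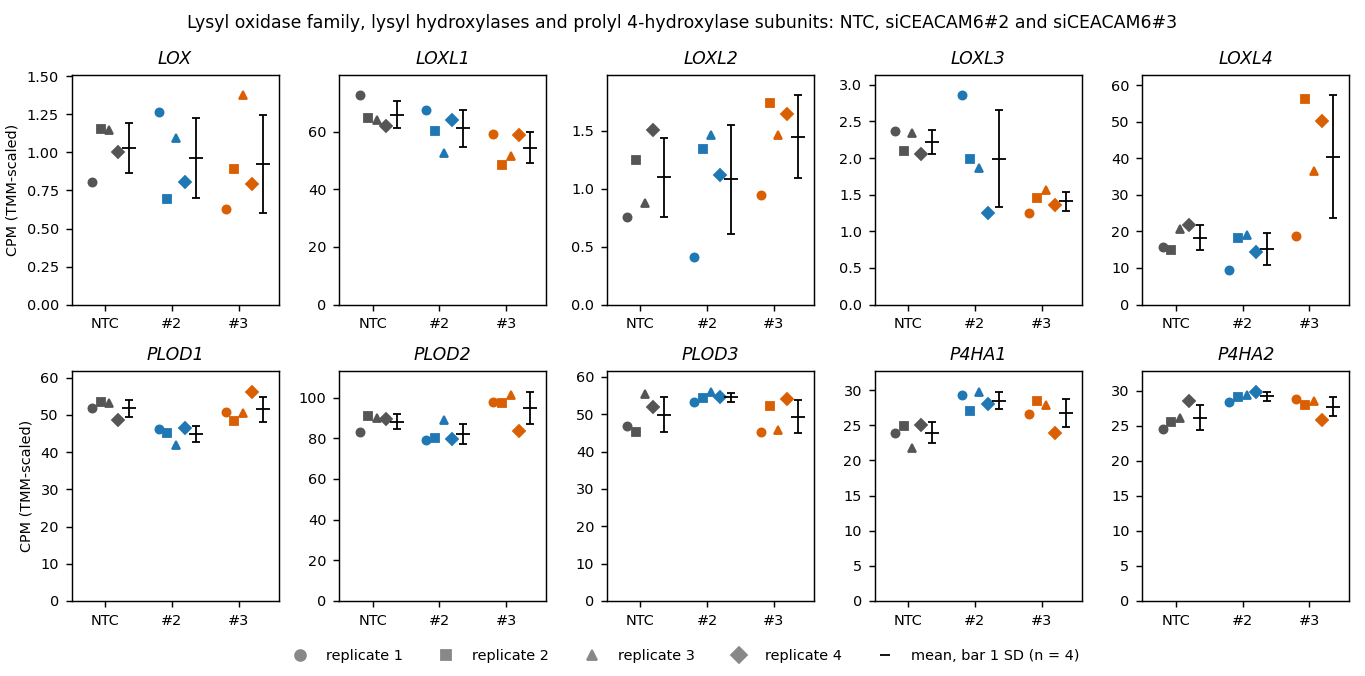
Level of each gene in CPM (each panel has its own axis from 0) in NTC, siCEACAM6#2 and siCEACAM6#3, with 1 marker per replicate and the mean with 1 SD beside them (n = 4). LOXL4 is high in siCEACAM6#3 replicates 2, 3 and 4 but not in replicate 1, and P4HA1 is higher in every siCEACAM6#2 sample than in every NTC sample.

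Apart from LOXL4, 0 of the 9 genes passed the adjusted threshold of limma-voom in any of the 4 contrasts. Over all tested genes, 1.25% passed for siCEACAM6#2 versus NTC, 0.0681% for siCEACAM6#3 versus NTC, 0.227% for the average of both siRNAs and 1.47% for siCEACAM6#3 versus siCEACAM6#2. At an unadjusted p under 0.05 the counts were 3, 3, 4 and 2 of 9 in the same order, against 13.6%, 12.5%, 12.9% and 13.3% of all tested genes. In CPM, the ranges of the samples did not overlap for 2 of the 9 genes (P4HA1 higher, PLOD1 lower) in siCEACAM6#2 versus NTC. Of all tested genes 10.8% were of this kind. They did not overlap for LOXL1 and LOXL3 in siCEACAM6#3 versus NTC, against 6.27% of all tested genes, and for PLOD1 in siCEACAM6#3 versus siCEACAM6#2, against 6.68%. The median log2 fold change of the 9 genes was -0.11 for siCEACAM6#2 and -0.01 for siCEACAM6#3 versus NTC, while the median of all tested genes was 2e-04 and -0.0032.

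**Figure D4:**
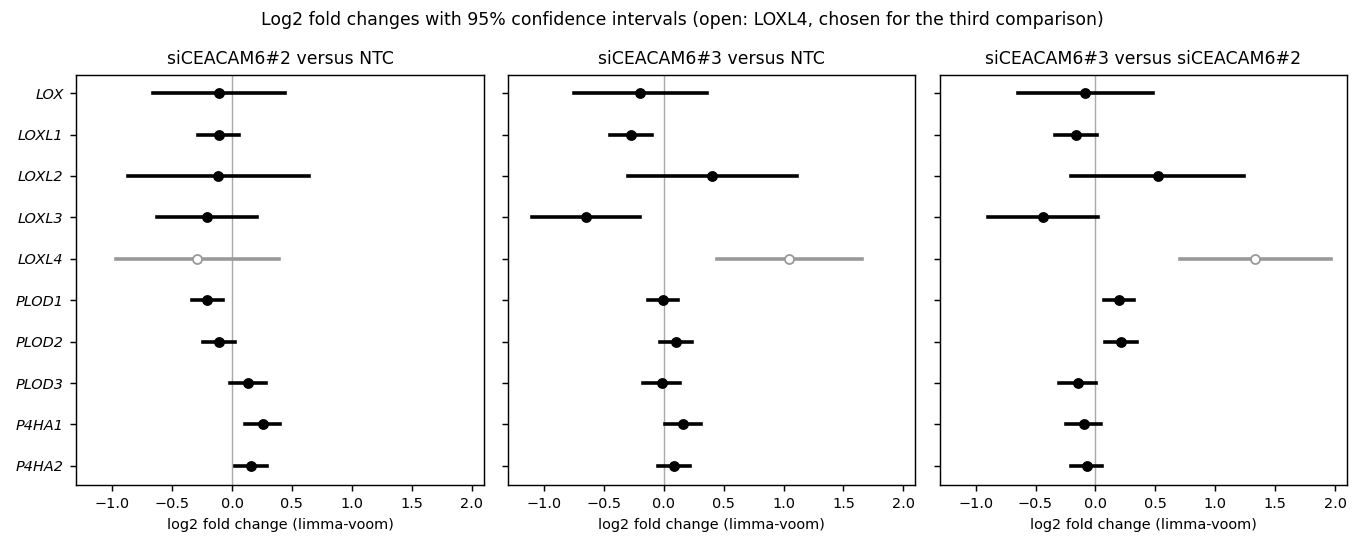
Log2 fold change (x axis, limma-voom) of each gene in 3 comparisons, with its 95% confidence interval, which is not adjusted for the number of genes. LOXL4 is drawn open because it was chosen for the comparison between the siRNAs; intervals are widest for LOX, LOXL2 and LOXL4.

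The collagen chains, the substrates of these enzymes, contained genes that passed the test. Of 33 listed chains 21 were tested. In siCEACAM6#2 versus NTC 3 rose and 0 fell, where 1.25% of all tested genes passed. In siCEACAM6#3 versus NTC 0 passed, against 0.0681% of all tested genes. For the average of both siRNAs 2 rose (COL16A1 and COL17A1), against 0.227%. Both of these calls were lost in both fits on TPM, and that of COL16A1 was kept in 3 of the 12 fits that left out 1 sample. Between the siRNAs 1 was higher (COL12A1) and 2 were lower (COL4A6 and COL16A1) with siCEACAM6#3, against 1.47%. The 2 lower calls were each lost in 5 of the 12 fits that left out 1 sample, with only the groups compared, without the filter, in both fits on TPM and without all 3 samples numbered 1. The median log2 fold change of the 21 chains was 0.12 for siCEACAM6#2 and 0.02 for siCEACAM6#3 versus NTC. The most abundant chain, COL7A1 of the anchoring fibrils, averaged 32.8 TPM over all samples.

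COL17A1, the hemidesmosomal collagen of epithelial cells, was 85.8, 86.7, 98.8 and 92.6 CPM in NTC, 128, 130, 142 and 123 CPM with siCEACAM6#2 and 116, 121, 106 and 112 CPM with siCEACAM6#3. In CPM both knockdown groups lay above NTC. In TPM siCEACAM6#2 (37.76 to 41.17) lay above NTC (25.15 to 28.85), whereas siCEACAM6#3 (27.75 to 33.74) overlapped it. COL17A1 rose 1.44-fold upon siCEACAM6#2 (log2 0.52 ± 0.0614 SE, adjusted p = 0.00124), and for siCEACAM6#3 the log2 fold change was 0.32 (adjusted p = 0.0793). COL16A1, a minor fibril-associated collagen, rose 2.08-fold upon siCEACAM6#2 (adjusted p = 0.00434) from a low level of 1.65 to 2.40 CPM in NTC. It did not pass in either fit on TPM. COL4A6, a basement membrane chain, rose 1.40-fold upon siCEACAM6#2 (adjusted p = 0.027), a call that was lost in 6 of the 12 fits that left out 1 sample. That call was also lost without the filter, in both fits on TPM and without all 3 samples numbered 1.

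COL12A1, a fibril-associated collagen, differed between the siRNAs. It measured 42.2, 53.6, 51.2 and 51.5 CPM with siCEACAM6#2 and 61.8, 84.1, 72.4 and 79.8 CPM with siCEACAM6#3, against 57.0, 61.1, 62.2 and 61.7 CPM in NTC. The siRNA groups did not overlap, and COL12A1 was higher with siCEACAM6#3 (log2 difference 0.58 ± 0.0895 SE, adjusted p = 0.00492).

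Among 16 listed genes of procollagen folding and modification, 14 were tested. Of these 2 passed, both between the siRNAs, where 1.47% of all tested genes passed. FKBP10, a chaperone of the endoplasmic reticulum needed for telopeptide lysine hydroxylation by PLOD2, measured 69.1, 72.0, 68.6 and 70.5 CPM with siCEACAM6#2 and 81.9, 85.9, 86.3 and 89.1 CPM with siCEACAM6#3. NTC lay in between at 77.9 to 81.9 CPM. FKBP10 was 1.22-fold higher with siCEACAM6#3 than with siCEACAM6#2 (log2 0.29 ± 0.0462 SE, adjusted p = 0.0066). CREB3L1, a transcription factor that drives collagen genes, was 1.35-fold higher in the same comparison (adjusted p = 0.0142), a call lost in both fits on TPM and without siCEACAM6#2 replicate 3. P4HB, the beta subunit that P4HA1 and P4HA2 need, was the most abundant gene of the list at 372.6 TPM and did not pass in any contrast.

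**Figure D5:**
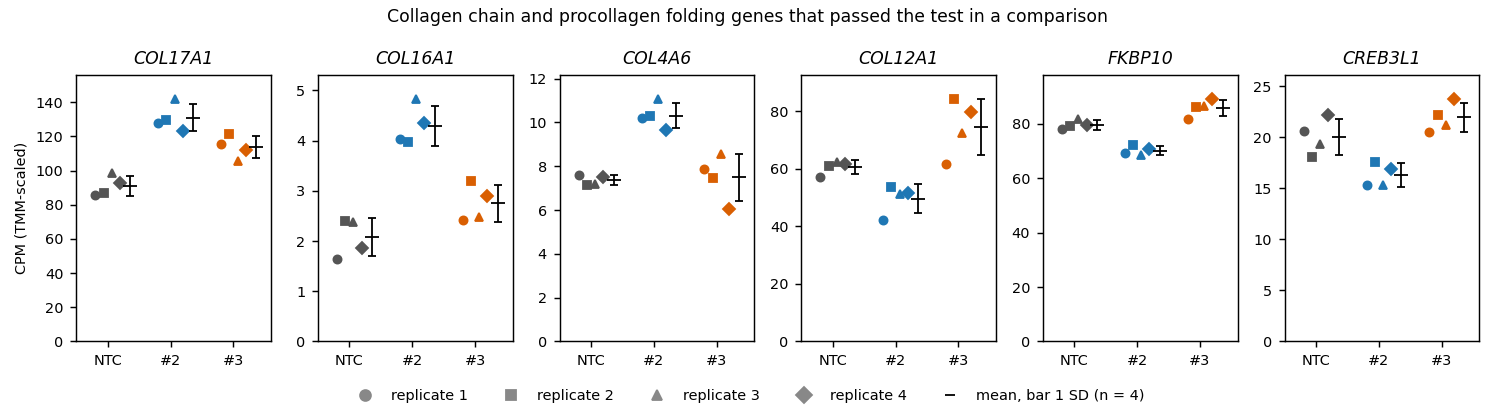
CPM (axes from 0) of the 4 collagen chains and 2 folding genes that passed the test in at least 1 contrast, with 1 marker per replicate and the mean with 1 SD (n = 4). COL17A1, COL16A1 and COL4A6 are highest with siCEACAM6#2, while COL12A1, FKBP10 and CREB3L1 are lowest with it.

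In the remaining lists, limma-voom called 0 genes in every contrast. These covered procollagen processing outside the cell (4 of 8 genes tested, led by BMP1 at 14.03 TPM, the protease that also activates LOX), elastic fibre and matrix partners (12 of 17, led by LTBP4 at 142.5 TPM), copper supply (7 of 7, led by the copper chaperone ATOX1 at 135.9 TPM), other prolyl hydroxylases and ascorbate transport (6 of 7, led by P4HTM at 43.3 TPM) and hypoxia targets (7 of 8, led by the glucose transporter SLC2A1 at 238.8 TPM). At an unadjusted p under 0.05, 6 of the 12 elastic fibre and matrix partners passed in siCEACAM6#3 versus NTC (12.5% of all tested genes). Their directions were mixed, with FBLN1, EFEMP1, LTBP1 and LTBP2 higher and MFAP2 and EMILIN1 lower. In siCEACAM6#2 versus NTC 2 of the 12 partners passed at this unadjusted level (13.6% of all tested genes). Of the 7 hypoxia targets 0 did so in either comparison with NTC. Between the siRNAs, 4 of the 12 partners and 2 of the 7 hypoxia targets did so (13.3% of all tested genes). These hypoxia targets were VEGFA, higher with siCEACAM6#3, and BNIP3, lower with it.

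The genes whose levels followed LOXL4 most closely were ranked by Pearson's r of log2 CPM over the 12 samples, among 15018 genes with a mean of at least 1 CPM. These were INPP1 (r = 0.986), PADI3 (r = 0.977), B4GALT5 (r = 0.971), RHOV (r = 0.967) and SPNS2 (r = 0.963). Spearman's rho for the 5 genes was between 0.895 and 0.965. Without siCEACAM6#3 replicates 2 and 4, the samples farthest from the median of LOXL4, r was between 0.911 and 0.975. After subtraction of each group's mean it was between 0.931 and 0.979. The samples share their groups and libraries and the genes were picked as the highest of many, so these values describe the 12 libraries only.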

How the data were processed

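RNA-seq of 12 SNU308 samples was analysed by group as labelled. Per the submitters' processing notes and the study's methods, the authors trimmed reads with Trim Galore 0.6.4 and quantified them with kallisto (0.4.6 in the notes, another version in the methods) against GENCODE transcripts of GRCh38.p13. The release and the summing to genes are not given in the sources used here. Labels and methods also differ on the transfection reagent and on read layout. The authors deposited estimated counts per gene, of which 69.3% of the values above 0 were not whole. The authors also deposited TPM, which corrects for transcript length and was used to compare genes. Kallisto divides reads shared by transcripts by estimation, so values of overlapping genes are uncertain.

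Counts were rounded, filtered with filterByExpr, scaled by TMM and fitted with limma-voom (R 4.3.3, limma 3.58.1, edgeR 4.0.16), with 1 mean per group and no covariate. A gene passed when its Benjamini-Hochberg adjusted p was under 0.05 within the contrast. The fit was tested on simulated data. Alternatives included edgeR's quasi-likelihood test, DESeq2 1.42.0, other scalings and filters, sample weights, a replicate block, limma-trend on log2(TPM + 1) and log2(TPM + 0.1), and leaving out each sample. One more, chosen after seeing the data, left out all 3 samples numbered 1. Coordinates, 3′ UTRs and 31-base words came from GENCODE release 44. The siRNA targets from the study's supplement were located on chromosome 19 of GRCh38.

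The genes and lists were chosen with earlier results of these data known. Named were the 10 genes, CEACAM6, list genes that passed in any contrast (up to 6 per list) and the 3 most abundant of each list (not all are needed in the text), the marker genes, and the 5 genes most like LOXL4. Some list genes at an unadjusted p under 0.05 were named as well. Intervals cover the spread between samples.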

Additional observations from a re-analysis of the deposited data

Results flagged for a closer look

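PLOD2 in siCEACAM6#2 replicate 3 stood apart from its group. Its level was 89.24 CPM, against 78.96 to 79.93 CPM in the other 3 samples, and the gap made up 0.906 of the group's range, past Dixon's limit for 4 samples. Of 30 groups examined this was the only one past the limit, and chance alone passes about 1 in 20.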

How the results depend on the processing

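Of 855 recomputed log2 fold changes of the 9 tested genes, 793 kept their direction and side of the threshold, 12 newly passed and 50 changed sign. The 95 LOXL4 values were not tested and kept their sign, with 0.85 to 1.39 for siCEACAM6#3 versus NTC and 1.12 to 1.68 between the siRNAs. In siCEACAM6#2 versus NTC, 2 genes (PLOD1 and P4HA1) were called with DESeq2, with sample weights and with only the groups compared, fits that called 3.03%, 6.36% and 3.49% of all genes, and 0 to 1 when 1 sample was left out. Sample weights called 1 gene in siCEACAM6#3 versus NTC (LOXL1), 1 in the average (P4HA1) and 1 between the siRNAs (PLOD2), beside 2.17%, 5.1% and 3.18% of all genes. DESeq2 also called 1 between the siRNAs (PLOD2) beside 3.16% of all genes, and leaving out 1 sample gave 0 to 1 there. CEACAM6 in siCEACAM6#3 versus NTC ran from -0.50 to -0.43 when 1 sample was left out. The cause of these changes was not tested.

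Sign changes occurred at values whose 95% intervals included 0, except the LOXL3 average (-0.43, interval -0.79 to -0.06). With log2(TPM + 1) and log2(TPM + 0.1), in that order, siCEACAM6#2 versus NTC gave 0.0543 and 0.17 for LOX, 0.11 and 0.16 for LOXL2 and 0.0888 and 0.13 for LOXL3. LOXL2 gave -0.0334 and -0.0902 for siCEACAM6#3 versus NTC and -0.15 and -0.26 between the siRNAs. The average gave 0.0236 and 0.0703 for LOX, -0.0129 and -0.0134 for PLOD3 and, with the first only, 0.002 for LOXL3. With sample weights, LOX gave 0.0609 for siCEACAM6#3 versus NTC and 0.24 between the siRNAs, and LOXL2 gave 0.0537 for siCEACAM6#2 versus NTC. Without all 3 samples numbered 1, LOX gave 0.23 between the siRNAs, LOXL2 0.14 for siCEACAM6#2 versus NTC, and PLOD1 0.0018 and PLOD3 0.0015 for siCEACAM6#3 versus NTC. The PLOD2 average, -0.0013, became 5e-04 with edgeR and with RLE factors, 0.0022 with DESeq2, 8e-04 without a filter, 0.0013 with the stricter filter and 0.0262 with sample weights. When 1 sample was left out, the ranges that crossed 0 were -0.25 to 0.0306 (LOX) and -0.30 to 0.30 (LOXL2) for siCEACAM6#2 versus NTC, -0.29 to 0.0861 (LOX) between the siRNAs, -0.0543 to 0.0198 (PLOD1) and -0.0621 to 0.0407 (PLOD3) for siCEACAM6#3 versus NTC, and -0.0089 to 0.35 (LOXL2) and -0.0264 to 0.0283 (PLOD2) for the average.

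With the replicate number as a block, 0 of the 9 genes passed in each contrast, while calls over all genes went from 221 to 284, 12 to 87, 40 to 118 and 259 to 349. Deviations of same-numbered samples correlated between -0.0541 and 0.185, over 0.1 in 2 of 12 pairs, so the numbers were not taken to pair samples. LOX and LOXL2 rest on few counts, and their intervals limit what can be said.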
